A study of Homo sapiens with 18 samples.

Results

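HUDEP1 is an immortalised line of human erythroid progenitors, and 1D5 and 1KI9 are 2 of its clones that express GATA1s, the short form of the transcription factor GATA1. The comparison took the 3 RNA-seq libraries of 1KI9 and the 3 of 1D5 grown in expansion medium, 6 of the 18 libraries of the series, chosen by their labels alone. Clone FL, which expresses full-length GATA1, had 3 libraries in the same medium, and these serve here only to show which GATA1s clone lies further from it. The expansion medium of all 3 clones was SFEM II with erythropoietin (EPO) at 3 U/mL, stem cell factor (SCF) at 50 ng/mL, dexamethasone at 1 µM and doxycycline at 1 µg/mL. The same 2 GATA1s clones were also sampled at day 4 of differentiation, in a serum medium with insulin, heparin and transferrin, the same EPO, SCF and doxycycline, and no listed dexamethasone. Each group was a single clone, so a difference between 1KI9 and 1D5 is a difference between 2 clones of the same GATA1 form. The labels do not say whether the 3 libraries of a group came from separate cultures, and the p-values then measure only the spread between these libraries, which may be technical.

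GATA1 is the master regulator of the erythroid lineage: it switches on globin, heme and red cell membrane genes and switches off genes of earlier progenitors and of other blood lineages. GATA1s lacks the N-terminal activation domain but keeps the zinc fingers that bind DNA, and mutations that leave only this form underlie the myeloid leukaemia of Down syndrome and some congenital anaemias. HUDEP lines were immortalised with doxycycline-inducible papillomavirus oncogenes, which were not analysed here.

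GATA1 RNA did not separate the clones in expansion. GATA1 (X:48786554-48794311) was at 637.36, 680.19 and 634.13 TPM, a length-normalised share of the library, in the 3 libraries of 1D5 and at 613.69, 628.84 and 662.04 in 1KI9. The libraries of the clones overlapped, and the difference of 1KI9 from 1D5 was -0.04 on the log2(TPM + 1) scale (SE 0.06, limma adjusted p = 0.661). Gene-level TPM does not separate the short from the full-length form. Library totals over the listed genes ran from 943734 to 950736 TPM in expansion. Pearson's r of log2(TPM + 1) across genes was 0.994 to 0.996 between libraries of 1D5, 0.995 to 0.997 between those of 1KI9 and 0.970 to 0.984 between the clones. FL libraries correlated with 1D5 at 0.974 to 0.976 and with 1KI9 at 0.939 to 0.953. Genes at 1 TPM or more numbered 10122 to 10229 in 1D5, 10449 to 10490 in 1KI9 and 9965 to 10087 in FL.

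Both clones expressed genes of erythroid identity. TFRC, the transferrin receptor, was at 342.32, 417.96 and 352.38 TPM in 1D5 and 254.99, 315.28 and 350.1 in 1KI9 (difference -0.28, limma adjusted p = 0.0785). TFRC did not separate the clones at the 0.05 threshold, and its libraries overlapped. KLF1, an erythroid transcription factor, was at 174.64, 202.26 and 165 TPM in 1D5 and lower in all 3 libraries of 1KI9, at 133.77, 137.49 and 137.72 (difference -0.40, SE 0.09, limma adjusted p = 0.00182). EPOR, the EPO receptor, differed by -0.12 (limma adjusted p = 0.416).

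Clone 1KI9 differed from 1D5 across a large part of the transcriptome, and most of the differences were small. Of 11042 genes tested, 3690 were higher in 1KI9 (33.4%) and 791 were lower (7.16%) at an adjusted p below 0.05, together 40.6%. A difference of at least 2-fold on the log2(TPM + 1) scale was reached by 397 of the higher genes (3.6%) and 30 of the lower ones (0.272%). All 3 libraries of 1KI9 lay above all 3 of 1D5 for 4343 genes (39.3%) and below them for 1077 (9.75%).

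The split between higher and lower genes depended on how the libraries were scaled. The median difference over all genes tested was 0.114, and median-of-ratios scaling, which sets the typical gene equal between libraries, brought it to 0.014. With that scaling 2658 genes were higher (24.1%) and 1955 lower (17.7%), with 343 higher and 41 lower by at least 2-fold. The count of lower genes also rested on single libraries: it was 422 without 1D5 replicate 2 and 440 without 1KI9 replicate 1.

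**Figure D1:**
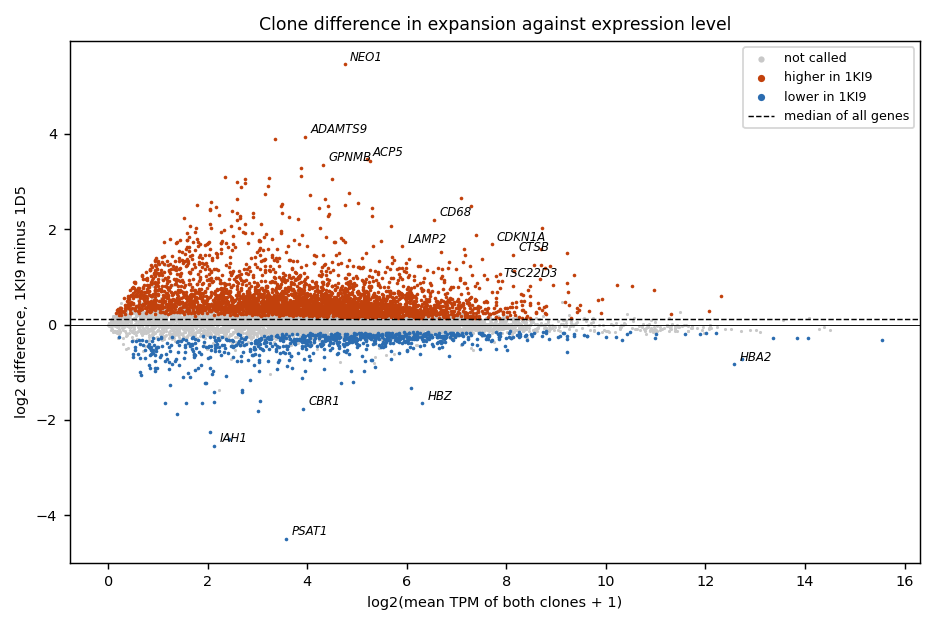
Log2 difference of 1KI9 minus 1D5 in expansion (vertical axis) against the mean level of each gene as log2(mean TPM + 1) (horizontal axis), 1 point per gene tested, with the median difference of 0.114 as a dashed line. The called genes lie mostly above 0, and NEO1 at 5.45 and PSAT1 at -4.49 are the ends of the range among the labelled genes.

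NEO1, ADAMTS9 and RNF182 led the genes higher in 1KI9. The 14 genes with the largest differences ranged from 2.97 to 5.45 on the log2(TPM + 1) scale, and the libraries of the clones overlapped for none of them. All but NEO1 lay between 2.97 and 3.93. The highest limma adjusted p among them was 1.38e-07.

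NEO1 (15:73051710-73305206), which encodes neogenin, a receptor for netrins and repulsive guidance molecules, was at 0.22, 0.12 and 0.27 TPM in 1D5 and at 48.49, 52.59 and 53.74 in 1KI9. Its difference was 5.45 (SE 0.12, limma adjusted p = 3.29e-16), and FL held it at 0.31, 0.97 and 0.79 TPM, so 1KI9 was the clone that stood apart. ADAMTS9 (3:64515654-64688000), a secreted metalloprotease of the extracellular matrix, was at 1.22, 0.58 and 0.9 TPM in 1D5 and 23.78, 32.68 and 27.52 in 1KI9 (difference 3.93, SE 0.12, limma adjusted p = 1.48e-13). CD276, an immune checkpoint ligand of the B7 family, was at 2.98, 1.18 and 1.91 TPM in 1D5 and 34.1, 18.95 and 22.48 in 1KI9, a difference of 3.12. GPNMB, a transmembrane glycoprotein of melanosomes and macrophage lysosomes, was at 3.32, 2.04 and 2.3 TPM against 41.15, 25.9 and 38.93, a difference of 3.34. All 4 of these surface or secreted products were higher in every 1KI9 library.

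ACP5, the tartrate-resistant acid phosphatase of osteoclasts and macrophages, was at 8.92, 2.94 and 4.05 TPM in 1D5 and 91.04, 41.2 and 67.4 in 1KI9 (difference 3.46, SE 0.32). Its spread within each clone was wide, and the lowest 1KI9 library was still above the highest of 1D5. TPSB2, a mast cell tryptase, was at 8.51, 3.89 and 4.91 TPM against 80.68, 65.22 and 61.15, a difference of 3.42. ACSM3, a mitochondrial medium-chain acyl-CoA synthetase, was at 4.64, 4.16 and 2.92 TPM against 46.08, 36.24 and 35.45, a difference of 3.04. PAPSS1, which makes the sulfate donor used by sulfotransferases, was at 1.33, 0.9 and 0.81 TPM against 15.42, 14.88 and 17.3, a difference of 3.07. These 4 genes had some RNA in 1D5, so they differed in degree and not by presence alone.

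PDLIM1, an actin-associated adaptor with a LIM domain, was at 2.65, 1.6 and 1.13 TPM in 1D5 and 25.42, 24.6 and 26.27 in 1KI9, a difference of 3.28. FL held PDLIM1 at 7.8, 12.77 and 11.24 TPM, between the 2 GATA1s clones. RNF182, a membrane-anchored ubiquitin ligase, was at 0.26, 0.32 and 0.26 TPM in 1D5, 19, 17.62 and 17.58 in 1KI9 and 4.04, 3.55 and 3.59 in FL, with a difference of 3.90 between the clones. GNA15, a G protein alpha subunit of blood cells, was at 0.4, 0.28 and 0.34 TPM in 1D5, 9.58, 9.92 and 9.53 in 1KI9 and 4.91, 9.39 and 6.87 in FL. For these 3 genes 1D5 had the lowest level of the 3 clones.

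MACF1, which links actin to microtubules, was at 0.59, 0.32 and 0.4 TPM in 1D5 and 10.81, 11.74 and 10.31 in 1KI9, a difference of 3.06. PKHD1L1, a large receptor-like protein related to fibrocystin, was at 0.1, 0.03 and 0.04 TPM against 9.93, 7.36 and 7.04, a difference of 3.10. CCNA1, the germ line and leukaemia-associated cyclin A, was at 0.73, 0.37 and 0.46 TPM in 1D5 and 12.77, 11.12 and 8.91 in 1KI9, a difference of 2.97. FL held CCNA1 at 0, 0.02 and 0.02 TPM and PKHD1L1 at 0.14, 0.09 and 0.02 TPM, so both genes were expressed above 1 TPM in 1KI9 alone of the 3 clones in expansion.

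**Figure D2:**
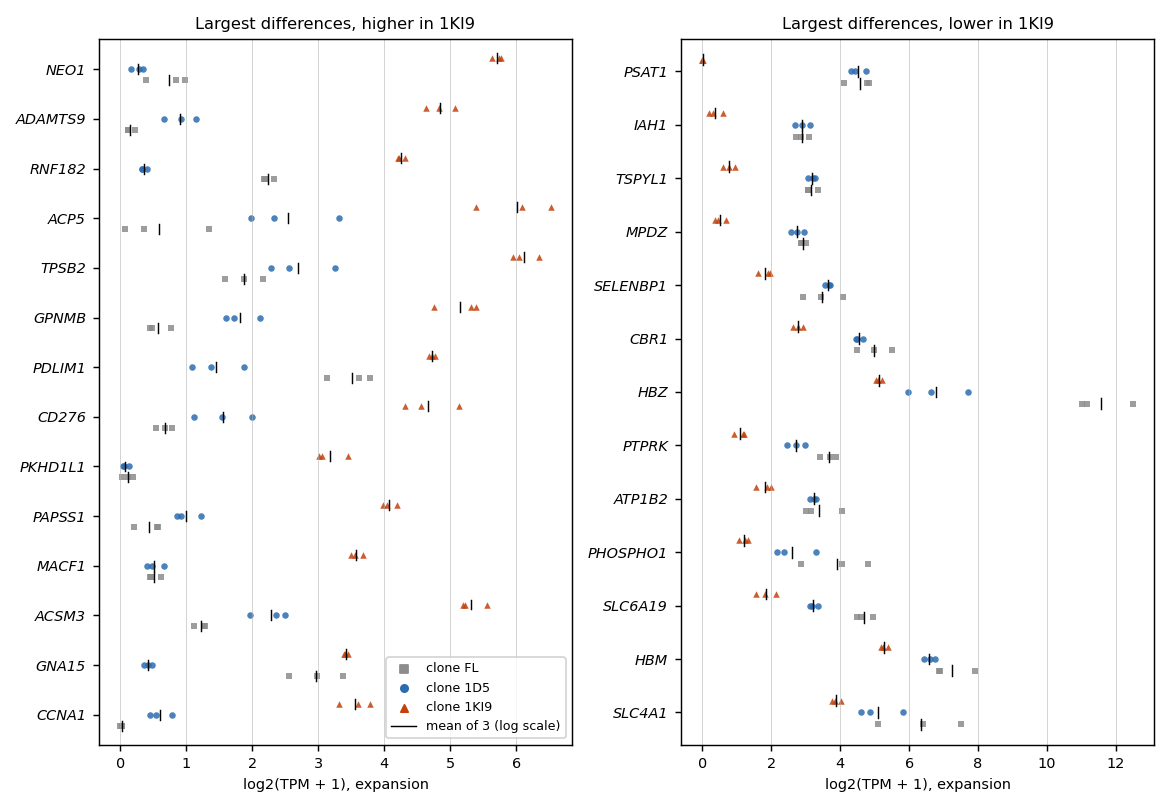
Level of the leading genes as log2(TPM + 1) in each expansion library (grey squares FL, blue circles 1D5, orange triangles 1KI9, bars the mean of 3 on this scale). Circles and triangles do not overlap for any gene shown, and for PSAT1 the grey squares lie with the circles of 1D5.

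PSAT1 had the largest difference in the other direction. The gene (9:78297143-78330093), which encodes the phosphoserine aminotransferase of serine synthesis, was at 25.84, 18.95 and 20.7 TPM in 1D5 and was listed at 0, 0.02 and 0 in 1KI9. FL held it at 27.32, 16.38 and 26.24 TPM, so 1KI9 was the clone without it. The difference was -4.49 on the log2(TPM + 1) scale (SE 0.14, limma adjusted p = 1.48e-13), a value set by the pseudocount of 1. At day 4 the gene was at 2.01, 2.13 and 1.82 on the deposited scale in 1D5 and at 0, 0.03 and 0.01 in 1KI9.

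The promoter windows of the 2 genes with the largest differences in each direction are printed because 1 clone held almost no RNA of each. The windows run from 250 bases before to 50 bases after the RefSeq start site, on GRCh38.p14 and on the gene's own plus strand, and capitals mark CG dinucleotides. The PSAT1 window is chr9:78296875-78297174 with 37 CG dinucleotides, and the NEO1 window is chr15:73051652-73051951 with 35.
PSAT1: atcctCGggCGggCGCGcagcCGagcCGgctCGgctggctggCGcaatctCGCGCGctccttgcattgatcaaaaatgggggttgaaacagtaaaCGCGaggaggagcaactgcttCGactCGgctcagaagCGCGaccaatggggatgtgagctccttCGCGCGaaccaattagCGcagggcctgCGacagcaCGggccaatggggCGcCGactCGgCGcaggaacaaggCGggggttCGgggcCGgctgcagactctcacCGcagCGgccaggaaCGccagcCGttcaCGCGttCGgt
NEO1: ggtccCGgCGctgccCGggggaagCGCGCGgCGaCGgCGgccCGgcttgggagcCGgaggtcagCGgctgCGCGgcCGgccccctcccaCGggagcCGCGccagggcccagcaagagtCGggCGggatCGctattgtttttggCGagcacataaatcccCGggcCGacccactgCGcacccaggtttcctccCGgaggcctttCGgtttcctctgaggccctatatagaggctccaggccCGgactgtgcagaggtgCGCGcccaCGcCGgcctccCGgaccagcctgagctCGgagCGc
The observed over expected CpG ratio was 1.14 for PSAT1 and 0.88 for NEO1, both above the value of 0.6 commonly used for CpG islands. No methylation was measured in these libraries.

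The next largest differences towards lower levels in 1KI9 were those of IAH1, TSPYL1 and MPDZ. IAH1, an esterase, was at 5.38, 7.62 and 6.46 TPM in 1D5 and 0.23, 0.13 and 0.51 in 1KI9, a difference of -2.54. TSPYL1, of the nucleosome assembly protein family, was at 8.18, 8.55 and 7.32 TPM against 0.5, 0.72 and 0.92, a difference of -2.40. MPDZ, a scaffold with many PDZ domains, was at 4.96, 6.72 and 5.66 TPM against 0.29, 0.62 and 0.38, a difference of -2.24. These 3 genes were below 1 TPM in every 1KI9 library.

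CBR1, a carbonyl reductase, was at 21.26, 24.37 and 21.01 TPM in 1D5 and 5.13, 5.86 and 6.56 in 1KI9, a difference of -1.76. SELENBP1, a methanethiol oxidase abundant in red cells, was at 10.75, 11.9 and 11.75 TPM against 2.72, 2.05 and 2.86, a difference of -1.82. PTPRK, a receptor tyrosine phosphatase, was at 5.57, 4.48 and 6.85 TPM against 1.3, 0.87 and 1.24, a difference of -1.62. All 3 genes were lower in every 1KI9 library.

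ATP1B2, a sodium pump subunit, was at 7.71, 8.9 and 8.48 TPM in 1D5 and 3, 1.94 and 2.63 in 1KI9, a difference of -1.42. PHOSPHO1, a phosphatase that releases choline in maturing red cells, was at 3.52, 4.15 and 8.73 TPM against 1.08, 1.49 and 1.35, a difference of -1.41. SLC6A19, a neutral amino acid transporter, was at 7.97, 7.76 and 9.15 TPM against 1.96, 2.53 and 3.36, and FL held 30, 23.37 and 21.57. The order for SLC6A19 was therefore FL, 1D5, 1KI9, with no overlap between neighbours. HBM, the mu-globin gene, was at 85.32, 95.31 and 105.97 TPM in 1D5 and 37.08, 40.62 and 35.03 in 1KI9, a difference of -1.32.

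HBZ, the embryonic zeta-globin, was at 61.65, 98.71 and 205.78 TPM in 1D5 and 31.85, 33.37 and 35.69 in 1KI9 (difference -1.65, SE 0.33, limma adjusted p = 0.000705). SLC4A1, the anion exchanger of the red cell membrane, was at 23.41, 27.99 and 55.72 TPM against 15.29, 13.41 and 12.59 (difference -1.22, SE 0.38, limma adjusted p = 0.0163). In both genes 1D5 replicate 3 was the highest library of its clone, and the clones did not overlap. The SLC4A1 call was lost without 1D5 replicate 3 (difference -0.85, limma adjusted p = 0.0968) and without 1KI9 replicate 3 (limma adjusted p = 0.052).

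A few genes were on in 1 clone and off in the other, with every library of 1 clone below 0.1 TPM and every library of the other at 1 TPM or more. CSRP1, a LIM-domain protein of actin filaments, was at 0.02, 0.06 and 0.02 TPM in 1D5 and 4.43, 5.37 and 4.81 in 1KI9. CPNE8, a calcium-dependent membrane-binding copine, was at 0.01, 0 and 0 TPM against 3.82, 3.67 and 3.64. GPR85, an orphan G protein-coupled receptor, was listed at 0 in the 3 libraries of 1D5 and at 1.84, 2.18 and 3.03 TPM in 1KI9. FL held CSRP1 at 0.24, 0.29 and 0.13 TPM and CPNE8 at 0, 0 and 0.03, so 1KI9 was the clone with RNA of these genes.

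For other on-off genes 1D5 was the clone that lacked RNA. DMD, the dystrophin gene on chromosome X, was at 0.02, 0.05 and 0.06 TPM in 1D5, 2.44, 3.39 and 2.15 in 1KI9 and 0.69, 1.45 and 0.72 in FL. ZNF772, a zinc finger gene, was at 0.08, 0.06 and 0.06 TPM in 1D5, 1.76, 1.67 and 2 in 1KI9 and 1.49, 1.72 and 1.34 in FL. TCEAL4, an X-linked relative of transcription elongation factors, was at 0.04, 0.07 and 0.06 TPM in 1D5, 1.24, 1.11 and 1.11 in 1KI9 and 0.78, 2.17 and 1.07 in FL. SLC9A2, a sodium-proton exchanger, and BMP5, a bone morphogenetic protein, were between 1.08 and 1.35 TPM in 1KI9 and below 0.1 in 1D5. PSAT1 and SULT4A1, a brain sulfotransferase relative, were on only in 1D5 of the 2 clones, SULT4A1 at 1.13 ± 0.157 TPM (SD, n = 3) against 0.01, 0.08 and 0 in 1KI9.

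Lysosomal genes were higher in 1KI9. Of 26 members tested, 21 were higher and 1 lower, against 33.4% and 7.16% of all genes, with a median difference of 0.511 against 0.114, and with median-of-ratios scaling 17 were higher and 2 lower with a median of 0.417. LAMP2, a glycoprotein of the lysosomal membrane, was at 30.46, 25.81 and 27.91 TPM in 1D5 and 96.79, 87.24 and 84.05 in 1KI9 (difference 1.64, SE 0.08, limma adjusted p = 2.29e-11). GRN, the precursor of lysosomal granulins, was at 78.46, 64.37 and 67.6 TPM against 230.56, 195.76 and 213.13, a difference of 1.59. CTSB, a cysteine cathepsin, was at 152.75, 136.49 and 153.85 TPM against 486.3, 360.71 and 383.46, a difference of 1.46. PSAP, which encodes the saposin precursor, was the most abundant member, at 243.8, 198.85 and 224.55 TPM against 577.56, 485.29 and 522.45 (difference 1.25, SE 0.07, limma adjusted p = 4.08e-10).

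The summed level of the lysosomal list made up 0.194% ± 0.00643 of all TPM in 1D5 and 0.366% ± 0.0238 in 1KI9 (SD, n = 3 each). The 1 member lower in 1KI9 was GLMP, a lysosomal membrane glycoprotein, at 1.07, 1.15 and 1.44 TPM in 1D5 and 0.36, 0.61 and 0.62 in 1KI9 (difference -0.54). FL held GLMP at 15.69, 15.94 and 13.75 TPM, far above both GATA1s clones.

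Several lysosomal genes that were higher in 1KI9 carry the same promoter word. GTCACGTG is the core of the element bound by TFEB, TFE3 and related factors, and it holds the shorter E-box CACGTG within it. Searched on both strands in windows of 300 bases, GTCACGTG was present in 6 of the 17 lysosomal genes tested that had a RefSeq window (35.3%) and in 4.79% of all windows of genes tested. CACGTG was present in 35.3% and 10.8%. Among all genes higher in 1KI9 by at least 2-fold, GTCACGTG was in 3.74% of windows and CACGTG in 7.48%, below the shares of all genes tested. The DNA replication genes held GTCACGTG in 3 of 24 windows (12.5%). A link of the word to the clone difference was not tested. The 6 genes were CTSD, CTSA, MCOLN1, GAA, LAMP1 and ATP6V0D1, all higher in 1KI9. Of the 11 genes whose window held no match, 6 were also higher, among them GRN. The 4 windows below are given in the gene's own direction, with matches to GTCACGTG on either strand in capitals. They lie at chr11:1763878-1764177 for CTSD (minus strand), chr20:45891085-45891384 for CTSA (plus strand), chr19:7522374-7522673 for MCOLN1 (plus strand) and chr13:113296989-113297288 for LAMP1 (plus strand), on GRCh38.p14 from RefSeq.
CTSD: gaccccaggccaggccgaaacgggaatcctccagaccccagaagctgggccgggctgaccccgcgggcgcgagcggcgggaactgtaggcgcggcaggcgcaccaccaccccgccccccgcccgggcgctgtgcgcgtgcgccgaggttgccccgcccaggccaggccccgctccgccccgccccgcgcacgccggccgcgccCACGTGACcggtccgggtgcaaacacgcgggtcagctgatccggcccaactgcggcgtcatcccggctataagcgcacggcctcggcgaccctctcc
CTSA: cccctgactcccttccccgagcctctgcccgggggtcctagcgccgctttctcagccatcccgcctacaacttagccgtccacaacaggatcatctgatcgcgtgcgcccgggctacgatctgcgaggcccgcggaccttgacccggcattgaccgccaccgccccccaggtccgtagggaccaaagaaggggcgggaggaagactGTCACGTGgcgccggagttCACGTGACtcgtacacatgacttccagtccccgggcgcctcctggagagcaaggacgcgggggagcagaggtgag
MCOLN1: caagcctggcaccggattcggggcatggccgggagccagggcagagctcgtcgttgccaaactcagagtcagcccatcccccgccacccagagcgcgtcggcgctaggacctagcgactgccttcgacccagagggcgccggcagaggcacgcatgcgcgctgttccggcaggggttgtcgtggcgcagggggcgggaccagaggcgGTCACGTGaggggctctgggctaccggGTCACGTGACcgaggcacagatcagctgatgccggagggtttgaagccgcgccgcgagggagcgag
LAMP1: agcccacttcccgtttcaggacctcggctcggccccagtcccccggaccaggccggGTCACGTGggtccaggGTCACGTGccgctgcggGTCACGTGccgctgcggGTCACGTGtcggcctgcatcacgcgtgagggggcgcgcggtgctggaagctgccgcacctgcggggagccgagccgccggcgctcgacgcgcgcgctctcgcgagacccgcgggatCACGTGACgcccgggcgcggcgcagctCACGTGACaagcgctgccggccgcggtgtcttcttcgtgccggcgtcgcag
A match is a description of the letters, and no binding was measured. CTSD, the aspartic cathepsin, was at 82.83, 76.92 and 76.28 TPM in 1D5 and 218.15, 186.28 and 190.1 in 1KI9, a difference of 1.32.

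Actin cytoskeleton genes were higher in 1KI9 for 19 of 23 members (82.6%, against 33.4% of all genes) and lower for 0. Their median difference was 0.527, and with median-of-ratios scaling 16 were higher and 0 lower. CAPG, a protein that caps actin filaments in macrophages, was at 4.68, 4.27 and 3.03 TPM in 1D5 and 24.49, 19.67 and 21.76 in 1KI9, a difference of 2.21. GSN, gelsolin, which severs actin filaments, was at 20.66, 16.47 and 16.81 TPM against 58.01, 51.33 and 48.24, a difference of 1.50. LCP1, the leukocyte plastin, was at 100.87, 104.3 and 95.08 TPM against 240.37, 265.19 and 278.34, a difference of 1.37. FL held LCP1 at 6.2, 9.95 and 9.12 TPM, so both GATA1s clones lay above it and 1KI9 the further. ACTB, beta-actin, the most abundant member, was at 2361.01, 2412.42 and 2181.07 TPM against 2381.86, 2842.4 and 2960.29 (difference 0.23, limma adjusted p = 0.0173). The ACTB libraries overlapped, and its call was lost with median-of-ratios scaling (limma adjusted p = 0.172) and without 1D5 replicate 3, 1KI9 replicate 2 or 1KI9 replicate 3 (limma adjusted p = 0.0797, 0.0713 and 0.104).

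**Figure D3:**
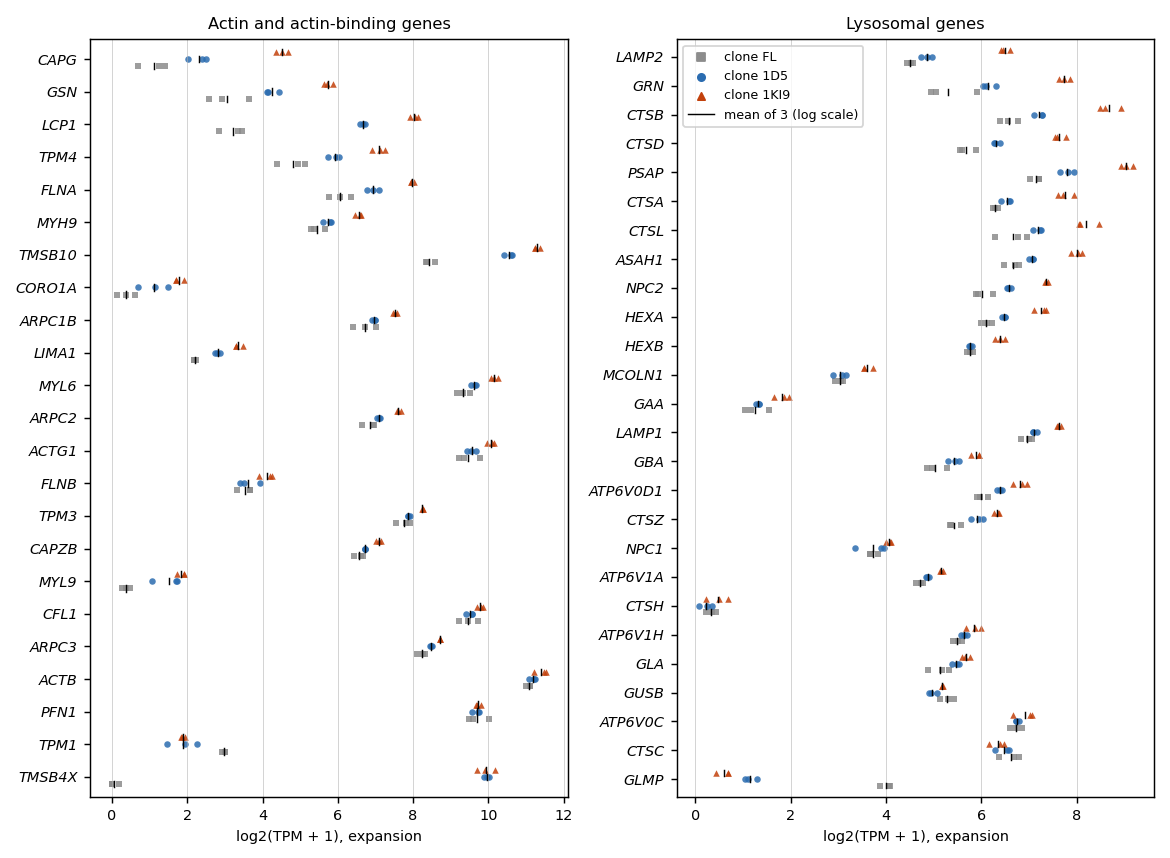
Level of 23 actin and actin-binding genes and 26 lysosomal genes in each expansion library as log2(TPM + 1) (grey squares FL, blue circles 1D5, orange triangles 1KI9, bars the mean of 3 on this scale), ordered by the clone difference. CAPG and LAMP2 show triangles well to the right of the circles, ACTB shows overlap, and GLMP shows triangles to the left.

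Of 19 integrin and adhesion genes tested, 12 were higher in 1KI9 (63.2%, against 33.4% of all genes). The 1 lower member was ICAM3 (5.26%, against 7.16%). The counts were 10 and 2 under median-of-ratios scaling, and 2 were lower without 1D5 replicate 3. ITGB3, the beta subunit of the platelet fibrinogen receptor, was at 2.15, 0.84 and 1.84 TPM in 1D5 and 8.96, 5.52 and 6.39 in 1KI9, a difference of 1.62. CD63, a tetraspanin of late endosomes, was at 298.41, 261.53 and 277.76 TPM against 724, 596.89 and 643.15, a difference of 1.22. SELPLG, the ligand of P-selectin, was at 33.82, 38.35 and 29.64 TPM against 63.92, 66.43 and 70.3. All 3 genes were higher in every library of 1KI9.

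Genes on 2 lists tied to the dexamethasone, EPO and SCF of the expansion medium were mostly higher in 1KI9. Signalling itself was not measured. Of 13 glucocorticoid-induced genes tested, 10 were higher (76.9%, against 33.4% of all genes) and 0 lower. The counts were 8 and 0 under median-of-ratios scaling. TSC22D3, the glucocorticoid-induced leucine zipper, was at 167.41, 140.73 and 166.14 TPM in 1D5 and 331.73, 284.56 and 278.02 in 1KI9 (difference 0.91, SE 0.10, limma adjusted p = 1.1e-06). FKBP5, a chaperone of steroid receptors, was the most abundant member, at 358.96, 339.34 and 435.65 TPM against 452.43, 459.71 and 483.96 (difference 0.31, limma adjusted p = 0.00164, and 0.20 with limma adjusted p = 0.0605 under median-of-ratios scaling). SGK1, a serum- and glucocorticoid-regulated kinase, and ZBTB16, a zinc finger repressor, differed by 0.67 and 0.62.

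Of 17 genes of EPO and SCF signalling tested, 12 were higher (70.6%) and 2 lower (11.8%), against 33.4% and 7.16% of all genes. The counts were 10 and 2 under median-of-ratios scaling. PTPN6, the tyrosine phosphatase that switches off the EPO receptor, was at 2.61, 3.18 and 2.38 TPM in 1D5 and 18.12, 16.16 and 19.19 in 1KI9 (difference 2.34, SE 0.11, limma adjusted p = 1.4e-11). KIT, the SCF receptor, was at 310, 284.58 and 308.32 TPM against 380.94, 416.69 and 433.59, a difference of 0.45. The 2 lower members were CISH and PIM1. CISH, an inhibitor of STAT5, was at 23.7, 33.99 and 28.11 TPM in 1D5 and 18.79, 18.5 and 16.66 in 1KI9 (difference -0.63, limma adjusted p = 0.00115). PIM1, a survival kinase, differed by -0.36 (limma adjusted p = 0.016), a call lost without 1D5 replicate 2, 1KI9 replicate 1 or 1KI9 replicate 2 (limma adjusted p = 0.0999, 0.0667 and 0.0551).

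Most of the monocyte and neutrophil markers tested were higher in 1KI9. Of 10 tested, 8 were higher (80%, against 33.4% of all genes, and 7 under median-of-ratios scaling) and 0 lower. Their median difference was 0.934. In these bulk libraries more cells of a type and more RNA per cell cannot be told apart. TYROBP, an adaptor of myeloid receptors, was at 1.71, 0.74 and 0.63 TPM in 1D5 and 8.26, 9.89 and 8.75 in 1KI9, a difference of 2.33. LYZ, lysozyme, was at 7.56, 7.64 and 4.09 TPM against 29.85, 38.02 and 37.15, and FL held 3.1, 31.32 and 10.88, so its 3 libraries spanned both clones. CD68, a lysosomal glycoprotein of macrophages, was at 37.14, 24.18 and 36.2 TPM against 189.3, 129.69 and 135.95, a difference of 2.19. CEBPA, at 7.08, 8.54 and 4.66 TPM in 1D5 and 5.08, 7.57 and 6.46 in 1KI9, overlapped between the clones, as did CEBPB. The table held 12 of the 18 markers on the list, which summed to 105 to 128 TPM in 1D5 and 334 to 366 in 1KI9. CSF1R, ELANE and PRTN3, defining receptors and granule enzymes of these cells, were below 1 TPM in all 9 expansion libraries. CD68 also belongs to the lysosome, and the part of such cells in the lysosomal and actin differences was not tested.

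Of 8 mast cell, basophil and eosinophil markers tested, 6 were higher in 1KI9 (75%, against 33.4% of all genes). The count of lower markers was 0, and 2 under median-of-ratios scaling. HDC and FCER1A reached 1 TPM in expansion in 1KI9 alone, so the filter could admit them through that clone and favoured a count as higher. HPGDS, which makes prostaglandin D, was at 0.23, 0.07 and 0.24 TPM in 1D5 and 8.17, 5.03 and 5.26 in 1KI9. FL held HPGDS at 4.58, 15.2 and 7.99 TPM, so 1D5 had the lowest level of the 3 clones. TPSAB1, another tryptase, was at 0.95, 0.69 and 1.27 TPM in 1D5 against 8.26, 6.62 and 5.06 in 1KI9. Reads of TPSB2 and TPSAB1 may be shared, since the 2 genes are near-identical copies. PRG2 overlapped between the clones, at 75.21, 96.13 and 73.18 TPM in 1D5 and 49.07, 48.95 and 88.21 in 1KI9. FL held PRG2 at 536.25, 613.58 and 873.25 TPM. The 11 markers in the table, PRG2 and KIT among them, summed to 515 to 526 TPM in 1D5, 630 to 714 in 1KI9 and 949 to 1400 in FL. SRGN was listed at 0 and MS4A2 and EPX were below 1 TPM in all 9 libraries.

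Of 8 megakaryocyte and platelet markers tested, 5 were higher (62.5%, against 33.4% of all genes, and 4 under median-of-ratios scaling) and 0 lower. The higher ones included GP6, the platelet collagen receptor, at 0.94, 0.64 and 0.37 TPM in 1D5 and 7.15, 4.98 and 4.89 in 1KI9. GP6 and ITGA2B reached 1 TPM in expansion in 1KI9 alone, so the filter favoured a count as higher. The 10 markers in the table summed to 222 to 226 TPM in 1D5 and 246 to 257 in 1KI9. GP9 and VWF were listed at 0 in all 9 libraries. Of the 2 stromal markers tested both were higher, and 3 of the 5 in the table were listed at 0. VIM, vimentin, was at 1217.31, 1126.78 and 862.5 TPM in 1D5 and 1806.56, 1865.47 and 1888.66 in 1KI9 (difference 0.81). FL held VIM at 885.67, 1860.14 and 1408.71 TPM, which overlapped both clones. COL1A1 was low, at 0.66, 0.4 and 0.26 TPM in 1D5 and 1.21, 1.48 and 1.42 in 1KI9. It too reached 1 TPM in expansion in 1KI9 alone. Stem and progenitor markers split, with 1 of 4 higher and 1 lower (3 under median-of-ratios scaling) and sums of 152 to 168 TPM in 1D5 and 122 to 145 in 1KI9. Among the 4 lymphocyte markers in the table, a total of 3 were listed at 0 and none was tested.

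Of 11 genes of class I antigen presentation tested, 6 were higher (54.5%, against 33.4% of all genes) and 0 lower, and the counts were the same under median-of-ratios scaling. HLA-E, a nonclassical class I molecule, was at 11.86, 8.97 and 9.17 TPM in 1D5 and 38.81, 32.24 and 34.69 in 1KI9, a difference of 1.73. B2M, the light chain of class I molecules, was at 485, 479.18 and 433.26 TPM against 751.33, 710.1 and 776.23, a difference of 0.68. Both genes were separated in every library.

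Genes of cell growth were lower in 1KI9, by smaller amounts. Of 27 DNA replication genes tested, 0 were higher and 18 lower (66.7%, against 7.16% of all genes), with a median difference of -0.237. With median-of-ratios scaling, where 17.7% of all genes were lower, 24 were lower with a median of -0.349. The counts of lower genes in this and the next lists rested on which libraries were used. The DNA replication count was 7 without 1KI9 replicate 1, 8 without 1D5 replicate 2 and 9 without 1D5 replicate 1. It was 14 to 20 without each of the other clone libraries, and 8 in the fit to the 9 expansion libraries alone.

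CDC6, which loads the replicative helicase, was at 54.03, 53.2 and 45.42 TPM in 1D5 and 34.85, 38.83 and 35.83 in 1KI9 (difference -0.47, SE 0.07, limma adjusted p = 4.93e-05). MCM4, a helicase subunit, was at 384.02, 412.13 and 334.79 TPM against 274.35, 309.32 and 310.84 (difference -0.33, limma adjusted p = 0.00533). POLD1, the catalytic subunit of DNA polymerase delta, differed by -0.36 (limma adjusted p = 0.00163). The clones did not overlap for these 3 genes. CDT1, which works with CDC6, differed by -0.37, and its call was lost without 1D5 replicate 2 or 1KI9 replicate 1 (limma adjusted p = 0.105 and 0.072).

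Over all genes 7.16% were lower, and 17.7% under median-of-ratios scaling. Of 24 mitosis genes tested, 0 were higher and 14 lower (58.3%, and 19 genes under median-of-ratios scaling). The count was 4 without 1D5 replicate 2, 4 without 1KI9 replicate 1, 7 without 1D5 replicate 1 and 3 in the fit to the 9 expansion libraries. BIRC5, the survivin subunit of the chromosomal passenger complex, differed by -0.34 and CCNB1, cyclin B, by -0.24. Both calls were lost without 1D5 replicate 2 (limma adjusted p = 0.0534 and 0.0847), and that of CCNB1 also without 1D5 replicate 1 or 1KI9 replicate 1 (limma adjusted p = 0.0738 and 0.11).

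Of 23 ribosome biogenesis genes tested, 1 was higher (4.35%) and 11 were lower (47.8%), against 33.4% and 7.16% of all genes. The counts were 0 and 17 under median-of-ratios scaling, where 24.1% of all genes were higher and 17.7% lower. The lower count was 3 without 1KI9 replicate 1, 5 without 1D5 replicate 1 and 5 in the fit to the 9 expansion libraries. MYC, the growth transcription factor counted in this list, was at 290.16, 349.22 and 281.62 TPM in 1D5, 196.23, 212.73 and 220.81 in 1KI9 and 373.76, 418.22 and 358.05 in FL (clone difference -0.54, SE 0.08, limma adjusted p = 3.56e-05). MYC was thus ordered FL, 1D5, 1KI9 with no overlap. FBL, fibrillarin, which methylates ribosomal RNA, differed by -0.31, and BRIX1, a factor of the large subunit, by -0.27. NPM1, nucleophosmin, the most abundant member, differed by -0.09 (limma adjusted p = 0.303). Of 79 cytosolic ribosomal protein genes, 0 were higher and 5 lower (6.33%, near the 7.16% of all genes), and 30 were lower under median-of-ratios scaling, where 17.7% of all genes were. The lower count was 0 without 1D5 replicate 2 or 1KI9 replicate 1, 1 without 1KI9 replicate 3, 3 without 1D5 replicate 1 or 1KI9 replicate 2 and 2 in the fit to the 9 expansion libraries.

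Of 25 purine and pyrimidine genes tested, 1 was higher (4%) and 9 were lower (36%), against 33.4% and 7.16% of all genes. The counts were 0 and 20 under median-of-ratios scaling, where 24.1% of all genes were higher and 17.7% lower. The lower count was 4 without 1D5 replicate 1, 4 without 1KI9 replicate 1, 5 without 1D5 replicate 2 and 5 in the fit to the 9 expansion libraries. RRM2, the small subunit of ribonucleotide reductase, was at 211.43, 201.31 and 173.92 TPM in 1D5 and 133.57, 151.86 and 147.94 in 1KI9 (difference -0.43, limma adjusted p = 0.00241). UMPS, which makes uridine monophosphate, differed by -0.36.

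Over all genes 33.4% were higher and 7.16% lower, and 17.7% were lower under median-of-ratios scaling. Of 20 serine, glycine and folate genes tested, 1 was higher (5%) and 7 were lower (35%, and 12 genes under median-of-ratios scaling). The lower count was 3 without 1D5 replicate 2 and 4 without 1KI9 replicate 1. Apart from PSAT1 the lower members included GLDC, the glycine cleavage decarboxylase, at 30.14, 31.12 and 25.92 TPM in 1D5 and 20.4, 24.29 and 20.48 in 1KI9 (difference -0.40, limma adjusted p = 0.0104). The clones did not overlap for GLDC, and its difference was far smaller than that of PSAT1.

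Of 23 cholesterol synthesis genes tested, 1 was higher (4.35%) and 4 were lower (17.4%), against 33.4% and 7.16% of all genes. Their median difference was -0.399. The lower count was 1 without 1D5 replicate 2, 1 without 1KI9 replicate 3, 2 without 1D5 replicate 1, 15 without 1D5 replicate 3, 1 in the fit to the 9 expansion libraries and 11 with median-of-ratios scaling. FDPS, farnesyl diphosphate synthase, was at 248.12, 339.29 and 202.89 TPM in 1D5 and 182, 194.46 and 162.92 in 1KI9 (difference -0.52, limma adjusted p = 0.00314). HMGCS1, the synthase at the head of the same pathway, went the other way, at 19.67, 26.94 and 14.21 TPM against 42.19, 40.29 and 39.56 (difference 1.01, limma adjusted p = 0.000259).

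**Figure D4:**
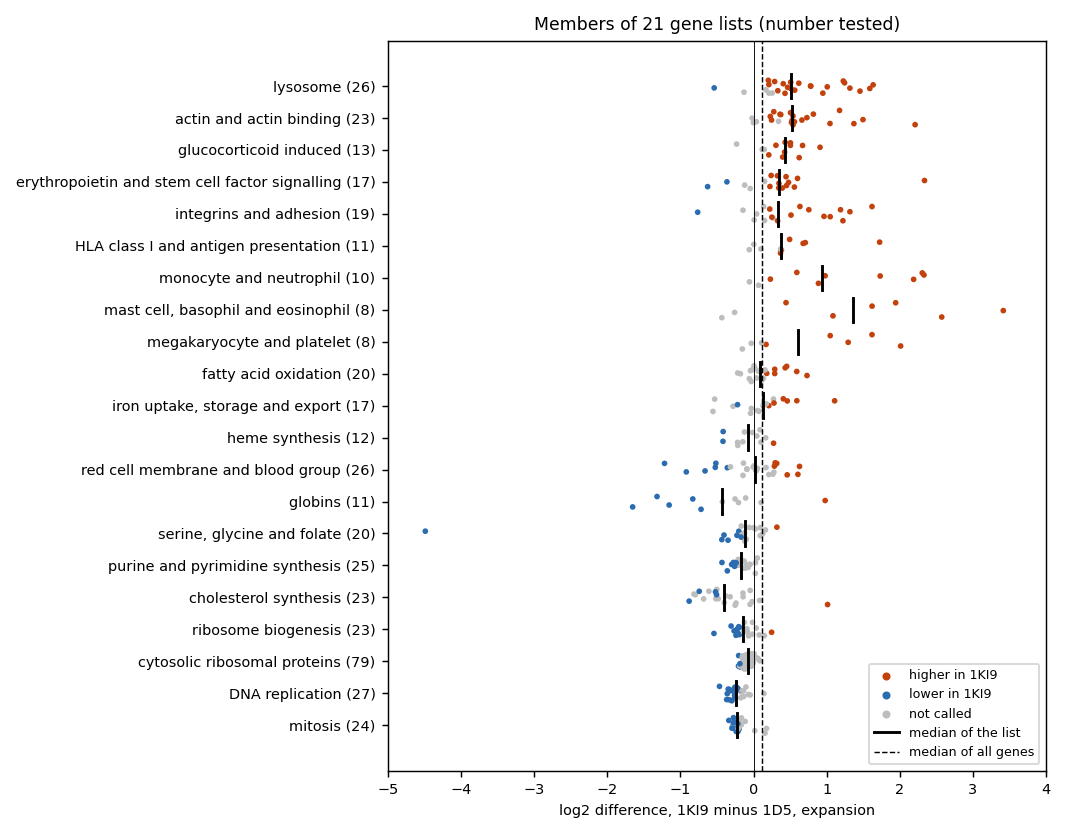
Differences of 1KI9 minus 1D5 in expansion on the log2(TPM + 1) scale for the members of 21 gene lists, 1 point per gene tested, with the median of each list and the median of all genes as a line. The actin list (median 0.527) and the lysosomal list (0.511) lie to the right of the line, and DNA replication (-0.237) to the left.

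Erythroid lists held genes that differed in both directions. Of 11 globin genes tested, 1 was higher (9.09%) and 5 were lower (45.5%), against 33.4% and 7.16% of all genes. Under median-of-ratios scaling 6 were lower. HBG2, the fetal gamma-globin that dominates these cells, was at 21255, 19818.2 and 31234.1 TPM in 1D5 and 24123.6, 20378.9 and 21409.2 in 1KI9 (difference -0.11, limma adjusted p = 0.72). The alpha-globin genes were lower: HBA1 was at 7323.03, 7735.61 and 10304.4 TPM against 5146.99, 5214.42 and 4887.35 (difference -0.72, SE 0.15, limma adjusted p = 0.000932). HBA2 was at 6687.51, 6478.77 and 10433.2 TPM against 4288.09, 4584.31 and 4083.96 (difference -0.83, SE 0.19, limma adjusted p = 0.00172). HBA1 and HBA2 are near-identical copies whose reads the counting could split, and both were lower in every 1KI9 library.

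HBB, the adult beta-globin, was at 4.57, 7.68 and 15.42 TPM in 1D5 and 3.21, 2.22 and 4.31 in 1KI9 (difference -1.15, limma adjusted p = 0.0108). Its call was lost without 1D5 replicate 3 (difference -0.74, limma adjusted p = 0.0742) and without 1KI9 replicate 2 (limma adjusted p = 0.0508). HBD, the delta-globin, was the 1 globin gene higher in 1KI9, at 1.98, 1.43 and 2.65 TPM against 5.05, 3.66 and 6.21. The globins together took 5.3% ± 1.33 of all TPM in 1D5 and 4.23% ± 0.272 in 1KI9 (SD, n = 3 each, exact two-sided permutation test, p = 0.2, where 0.1 is the smallest value 3 against 3 libraries allow). The difference of -1.08 percentage points became -0.31 without 1D5 replicate 3.

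Of 12 heme synthesis genes tested, 1 was higher (8.33%) and 2 were lower (16.7%), against 33.4% and 7.16% of all genes. Under median-of-ratios scaling 5 were lower. ABCB10, a mitochondrial transporter needed for haemoglobin production, was at 47.36, 57.59 and 48.46 TPM in 1D5 and 35.86, 38.94 and 38.94 in 1KI9 (difference -0.42, limma adjusted p = 0.00044). ALAS1, the housekeeping aminolevulinate synthase, differed by 0.27. Of 17 iron genes tested, 6 were higher (35.3%) and 1 lower (5.88%), shares near the 33.4% and 7.16% of all genes, and the counts were 4 and 2 under median-of-ratios scaling. Without 1KI9 replicate 3, 2 were lower. HEPH, a membrane ferroxidase, was at 43.12, 32.07 and 42.75 TPM against 100.28, 78.2 and 79.09, a difference of 1.11. FTL, the ferritin light chain, was at 4412.07, 3558.7 and 4286.81 TPM against 6297.58, 5979.26 and 6136.55 (difference 0.59, limma adjusted p = 1.63e-05), and NCOA4, the receptor that carries ferritin to the lysosome, differed by 0.46.

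Of the 26 genes tested for blood groups and the red cell membrane, 6 were higher (23.1%) and 6 lower (23.1%). Over all genes the shares were 33.4% and 7.16%. The counts were 5 and 9 under median-of-ratios scaling. Without 1KI9 replicate 3, and in the fit to the 9 expansion libraries, 3 were lower. CD47, the signal that spares red cells from phagocytosis, was at 24.91, 29.6 and 23.85 TPM in 1D5 and 37.32, 45.54 and 39.94 in 1KI9, a difference of 0.63. RHAG, the Rh-associated glycoprotein, differed by 0.17 (limma adjusted p = 0.0543). Of 20 erythroid transcription factor genes, 6 were higher (30%, near the 33.4% of all genes) and 4 lower (20%, against 7.16%). The counts were 4 and 8 under median-of-ratios scaling, where 24.1% of all genes were higher and 17.7% lower. BACH1, a heme-sensing repressor, and NFE2L1, a stress-response activator, differed by 0.69 each, and MYB, a factor of proliferating progenitors, by 0.45. Of 16 late erythroid genes, 4 were higher (25%) and 6 lower (37.5%), and 3 were higher under median-of-ratios scaling. PRDX2, the main peroxiredoxin of red cells, was at 616.64, 721.07 and 810.53 TPM against 431.89, 475.17 and 520.09 (difference -0.58), and HEMGN, a nuclear factor of erythroid cells, differed by -0.78.

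Cell cycle inhibitors went both ways. Of 22 genes on the list of cyclin-dependent kinase inhibitors, early cyclins and E2F factors, 6 were higher (27.3%) and 5 lower (22.7%). Over all genes the shares were 33.4% and 7.16%. The counts were 5 and 7 under median-of-ratios scaling, where 24.1% of all genes were higher and 17.7% lower. In the fit to the 9 expansion libraries, and without 1D5 replicate 1, 1D5 replicate 2 or 1KI9 replicate 1, 3 were lower. CDKN1A, the inhibitor p21, was at 130.93, 72.58 and 95.35 TPM in 1D5 and 356.49, 299.19 and 287.45 in 1KI9 (difference 1.68, SE 0.16, limma adjusted p = 2.73e-07). FL held CDKN1A at 57.66, 60.2 and 38.52 TPM, below every library of both GATA1s clones. CDKN2B, the inhibitor p15, was at 2.76, 1.16 and 2.51 TPM in 1D5 and 10.88, 11.43 and 9.59 in 1KI9, a difference of 1.93. CDKN1C, the inhibitor p57, was at 33.72, 62.92 and 41.15 TPM against 20.14, 27.32 and 19.77, a difference of -0.97. These 3 genes were each separated between the clones, CDKN1C in the opposite direction from the others.

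Among the remaining metabolic lists, 5 of 22 glycolysis genes were higher (22.7%, below the 33.4% of all genes) and 2 lower (7 under median-of-ratios scaling). SLC2A3, a high-affinity glucose transporter, was at 9.36, 5.97 and 8.95 TPM in 1D5 and 27.35, 32.42 and 33.68 in 1KI9, a difference of 1.84. PKM, pyruvate kinase, was at 498.23, 425.43 and 362.21 TPM against 899.97, 872.5 and 850.23 (difference 1.04, limma adjusted p = 0.000928), while GAPDH differed by -0.06. Of 20 fatty acid oxidation genes, 7 were higher (35%, near the 33.4% of all genes) and 0 lower. The counts were 6 and 3 under median-of-ratios scaling, and 2 were lower without 1D5 replicate 3. DECR1, a mitochondrial reductase, differed by 0.73. Of 17 genes of the integrated stress response, 5 were higher (29.4%, near the 33.4% of all genes) and 2 lower (11.8%, against 7.16%). The counts were 4 and 4 under median-of-ratios scaling. SESN2, a stress-induced inhibitor of growth signalling, differed by 0.92 and ASNS, asparagine synthetase, by -0.59.

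Among 8 secreted factors tested, 5 were higher (62.5%) and 1 lower (12.5%), against 33.4% and 7.16% of all genes. CXCL8, the chemokine interleukin 8, was at 1.51, 0.72 and 1.27 TPM in 1D5 and 12.77, 8.33 and 6.95 in 1KI9, a difference of 2.23. AREG, an epidermal growth factor receptor ligand, was at 55, 57.7 and 79.83 TPM against 113.2, 114.83 and 112.72, a difference of 0.83. Both were higher in every 1KI9 library.

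The FL libraries placed most of the difference with 1KI9. These contrasts share libraries with the clone comparison, so the classes are a description. Over all genes tested, 31.1% differed from FL in 1D5 and 59.6% in 1KI9. Of the 3690 genes higher in 1KI9 than 1D5, 1860 (50.4%) differed from FL in 1KI9 only, and 1220 (33.1%) differed in both clones and further in 1KI9. Only 1D5 differed from FL for 179 (4.85%). Of the 791 lower genes, 401 (50.7%) differed from FL in 1KI9 only and 223 (28.2%) in both and further in 1KI9. Among the 397 genes higher by at least 2-fold, 136 (34.3%) differed in 1KI9 only and 224 (56.4%) in both and further in 1KI9. PSAT1 and CPNE8 differed from FL in 1KI9 only, ZNF772 and TCEAL4 in 1D5 only. ADAMTS9, CDKN1A, LAMP2 and MYC differed from FL in both clones and further in 1KI9. PDLIM1, RNF182, GNA15 and DMD lay above FL in 1KI9 and below it in 1D5.

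Fewer genes passed the test between the clones at day 4, where the deposited values carry another scaling. Of 11083 genes tested there, 2123 differed between 1KI9 and 1D5 (19.2%), 1381 higher (12.5%) and 742 lower (6.69%). Of 4474 genes called in expansion and tested at day 4, 1025 (22.9%) were called in the same direction, 199 (4.45%) in the opposite one and 3250 in neither. Of the 426 genes at least 2-fold apart in expansion, 223 (52.3%) were called in the same direction at day 4 and 14 in the opposite one. The 1025 shared calls were 49.1% of the 2086 day-4 calls among genes tested in both. Across 11015 genes Pearson's r between the 2 differences was 0.46 and Spearman's rho 0.29, where genes are not independent replicates. The change of the clone difference between conditions passed the test for 2423 genes (22%), 483 upwards (4.38%) and 1940 downwards (17.6%).

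Among named genes, NEO1 was at 0.37, 0.42 and 0.43 on the deposited day-4 scale in 1D5 and at 46.33, 45.13 and 49.93 in 1KI9, and PTPN6 differed by 2.22. CDKN1A was at 949.12, 997.97 and 938.19 in 1D5 and 1012.52, 1015.69 and 935.39 in 1KI9 (difference 0.04, limma adjusted p = 0.898). Of the lysosomal genes, 12 were higher and 1 lower at day 4, with a median of 0.278. Over all genes tested at day 4, 12.5% were higher and 6.69% lower. Of 13 glucocorticoid-induced genes, 1 was higher and 4 were lower at day 4, and TSC22D3 differed by -0.49. Of 23 actin genes, 4 were higher and 1 lower. Medium, stage and scaling changed together between the conditions, and their parts were not tested. DNA replication genes had 0 higher and 0 lower. GATA1 differed by -0.20 at day 4 (limma adjusted p = 0.0251).

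**Figure D5:**
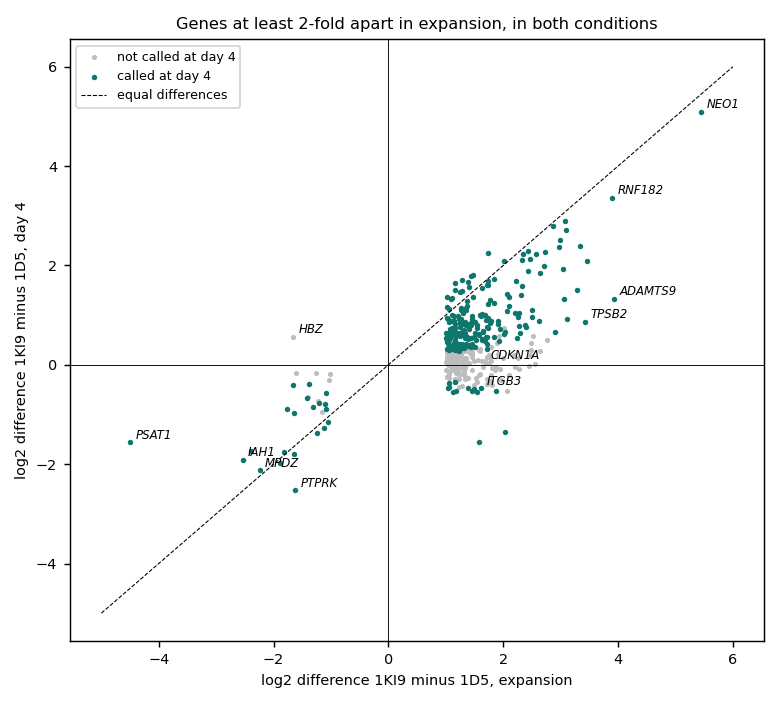
Difference of 1KI9 minus 1D5 at day 4 (vertical axis) against the difference in expansion (horizontal axis), both on the log2(value + 1) scale, for genes at least 2-fold apart in expansion. The higher genes have a median of 1.33 in expansion and 0.348 at day 4, and NEO1 and PSAT1 lie at the ends. The choice of genes by their expansion difference favours a smaller value at day 4.

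The difference was spread over the genome. Chromosome medians ran from 0.048 on chromosome 22 to 0.16 on chromosome X. Among 516 windows of 40 consecutive genes, the median difference ran from -0.112 at chr16:46407-1225257, which holds HBA1, HBA2 and HBZ, to 0.427 at chr12:6638075-10613623. The next highest, at chr1:204516379-212446379, had a median of 0.409 with 22 genes higher and 1 lower. It holds CD55, the complement decay-accelerating factor, at 63.94, 50.67 and 57.05 TPM in 1D5 and 117.11, 113.21 and 143.72 in 1KI9 (difference 1.11), and its neighbour CD46, another complement regulator, which differed by 0.50.

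Genes higher in 1KI9 by at least 2-fold had CpG-rich promoters less commonly than all genes tested, as a description with no test. A CpG ratio of 0.6 or more was found in 148 of 294 windows of genes higher by at least 2-fold (50.3%), in 18 of 19 windows of genes lower by at least 2-fold (94.7%) and in 85.3% of the 8751 windows of all genes tested. The GATA words AGATAA or TGATAA were searched on both strands. They were present in 40 of the 294 windows (13.6%), in 2 of the 19 windows of the lower genes (10.5%) and in 7.63% of all. The part of base composition in these shares was not tested. The words TTTGGCGC or TTTCGCGC, the usual forms of the E2F site, were present in 8 of 24 windows of the DNA replication genes (33.3%) and in 2.19% of all. Of the on-off genes, 7 of 9 with a window (77.8%) had a CpG ratio of 0.6 or more, against 85.3% of all. BMP5 at 0.1 and GPR85 at 0.34 were below it, while CPNE8 was at 0.68, CSRP1 at 0.88 and PSAT1 at 1.14.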

How the data were processed

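Processed RNA-seq values of 18 libraries (3 for each of 6 groups) were used, grouped by their titles. Reads were processed with Trim Galore 0.60, STAR 2.7 and RSEM 1.31 on hg38 (GRCh38.p12), per the submitters' processing notes. The authors deposited the expansion libraries as TPM, per the file headers. The day-4 columns of the deposited table hold a TPM-like signal whose library sums ran from 814583 to 1081251, and the sources used here do not give the scaling. The test planned for TPM was kept for them, and no test of levels across the 2 conditions is reported, only tests of the clone difference within each and of its change between them. Gene names come from the table and positions from GENCODE 29 (13328 of 13358 genes matched). The counts of reads are not in the values, so the depth is unknown and no interval for counting error is given.

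Values were tested as log2(value + 1) with limma 3.58.1 in R 4.3.3, with 6 group means fitted to all 18 libraries, a mean-dependent prior variance and Benjamini-Hochberg adjustment over all genes tested, at 0.05. Genes needed a value of 1 in at least 3 libraries, and genes listed at 0 in all 9 expansion libraries were left out, which gave 11042 genes. Differences are on this log scale, which understates the change of low genes. Alternatives were median-of-ratios scaling within each condition, a pseudocount of 0.1, no filter or a filter of 5 TPM, fewer libraries in the fit, a replicate block and leaving out each library in turn.

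Named genes were the 14 with the largest difference in each direction that were called, did not overlap and reached a mean of 5 TPM in the higher clone. They also comprised on-off genes, GATA1, erythroid identity markers, the up to 3 called list members with the largest difference and such a mean, the most abundant list member, and the most abundant called genes of a window. CTSD, GLMP, HBD, ICAM3 and PIM1 were chosen after their values were seen. Some genes that the rule names are not reported here. The members and the gene lists were chosen with earlier results of these data known. Promoter windows came from RefSeq (GRCh38.p14) for 8751 of the 11042 genes, matched by symbol. Entries that share a symbol numbered 50.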

Additional observations from a re-analysis of the deposited data

Results flagged for a closer look

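The clone difference of 23 of the 37 leading and on-off genes changed between expansion and day 4, by a test of the change itself (day 4 minus expansion, in log2 units, limma with adjustment over all genes). Over all genes tested the share was 22%. The 37 genes were chosen for their expansion differences, which the test uses again. That choice favours a smaller difference at day 4. Each change below is the day-4 difference of 1KI9 from 1D5 minus the expansion difference. The day-4 values carry another scaling, whose part in these changes was not tested.

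Among genes higher in 1KI9 in expansion, the change was -2.60 for ADAMTS9, which went from 3.93 to 1.33, and -2.56 for TPSB2, from 3.42 to 0.86. It was -2.18 for CD276, -1.76 for PDLIM1, -1.74 for MACF1, -1.38 for ACP5 and -1.11 for ACSM3. Smaller changes were -0.94 for GPNMB, -0.60 for CCNA1 and -0.53 for RNF182. All 10 genes kept a positive difference at day 4, so the clones stayed in the same order.

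Among genes lower in 1KI9, the change was 2.93 for PSAT1, from -4.49 to -1.56. PSAT1 stayed near 0 in 1KI9 in both conditions, and the 1D5 value was between 1.82 and 2.13 at day 4. HBZ changed by 2.21, from -1.65 to 0.56. The change was 0.99 for SLC6A19, 0.86 for CBR1, 0.75 for ATP1B2, 0.67 for TSPYL1 and 0.62 for IAH1. PTPRK changed by -0.90, from -1.62 to -2.52, and so differed further at day 4.

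Among on-off genes the change was -1.43 for DMD, -1.41 for CSRP1, -0.94 for BMP5 and -0.54 for CPNE8. GPR85 changed by 0.52, from 1.73 to 2.25. Of the 161 other genes chosen by the naming rule, the difference changed for 75, and in 35 of those it kept its sign and was smaller at day 4. The naming rule also used expansion differences, and the share over all genes was 22%.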

How the results depend on the processing

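Depth is unknown, so the limits are the 3 libraries per clone and the scaling. Of 129 alternative values of the main results 15 moved and 114 stayed within 1.5 times (counts) or 1 SD between libraries (other values). Within 1 SD, the difference in the globin share went from -1.08 to -0.31 percentage points without 1D5 replicate 3, and that in the mitochondrially encoded share from -2.14 to -1.07 without 1KI9 replicate 3. Median-of-ratios scaling gave 1955 lower genes in expansion, 1117 lower at day 4, 982 genes whose clone difference changed upwards and a median difference of 0.014. It put 1168 of the higher genes and 1052 of the lower ones in the class where 1KI9 only differs from FL. It put 126 lower genes where 1D5 only differs and 547 where both differ with 1KI9 further. Chromosome medians under it ran from -0.047 to 0.068. A fit to the 9 expansion libraries gave 469 lower genes. Leaving out 1 library of 1D5 or 1KI9 gave 422 to 971 lower genes and 2900 to 3547 higher genes. The lower count was 422 without 1D5 replicate 2 and 440 without 1KI9 replicate 1. Leaving out 1 FL library gave 816 to 909 lower genes and 3702 to 3873 higher genes. A pseudocount of 0.1 gave 690 genes higher and 84 lower by at least 2-fold.

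Across genes the replicate numbers showed little pairing. Deviations of same-numbered libraries from their clone means correlated at 0.04, 0.15 and 0.05, and those of libraries with other numbers at -0.17 to 0.11. With the replicate number as a block the counts were 3748 higher and 845 lower. Of 23 cholesterol synthesis genes 15 were then lower, against 4 without the block. A replicate effect shared by the clones in single lists was not tested. Of 179 called genes chosen by the naming rule, 43 lost the call under at least 1 of 13 alternatives, 12 uncalled ones passed under at least 1, and 0 reversed. Of the 28 leading genes, SLC4A1 was the 1 that lost its call.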

Other observations

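Other gene lists differed in part. Of 15 interferon-induced genes tested, 6 were higher in 1KI9 (40%) and 2 lower (13.3%), against 33.4% and 7.16% of all genes. Their median difference was 0.265. The lower count was 1 without 1D5 replicate 1, 1D5 replicate 2, 1KI9 replicate 1 or 1KI9 replicate 2, and 3 under median-of-ratios scaling. Of 15 glutathione genes, 6 were higher (40%) and 1 lower (6.67%), against 33.4% and 7.16% of all genes. The counts were 4 and 2 under median-of-ratios scaling, and 2 were lower without 1KI9 replicate 3. Of 35 nuclear subunits of respiratory complexes III to V, 0 were higher and 4 lower (11.4%, against 7.16% of all genes). That lower count was 13 under median-of-ratios scaling, 0 without 1D5 replicate 2 or 1KI9 replicate 1, 1 without 1D5 replicate 1, 2 without 1KI9 replicate 3 and 2 in the fit to the 9 expansion libraries.

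The change of clone FL from expansion to day 4 was set beside the clone difference, a description added after the values were seen. The 2 conditions were scaled differently, so each median is given beside that of all genes (-0.38 for day 4 minus expansion in FL) and without a test. Genes called higher in 1KI9 had a median FL change of 0.05, and genes called lower a median of -1.27. DNA replication, mitosis and ribosome biogenesis, lists lower in 1KI9, had FL medians of -1.91, -1.68 and -1.79, below that of all genes. Lists with few calls between the clones were also below it, at -1.33 for heat shock chaperones and -1.24 for glycolysis. The late erythroid list, with 6 of 16 members lower in 1KI9, had a median of 0.98. The lysosomal list had a median of 0.58. The globins, with 5 members lower in 1KI9, had a median of 2.46, and the actin list, with 19 members higher, had -0.47.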
